A study of Homo sapiens with 3 samples.

Results

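The 6 genes described here encode the nuclear receptors for retinoic acid: the retinoic acid receptors RARA, RARB and RARG, and the retinoid X receptors RXRA, RXRB and RXRG. They were taken by name, 6 of 19974 protein-coding genes. For each gene, every peak overlapping its RefSeq record with 5 kb either side was collected, and every super-enhancer that named the gene as its target or overlapped it. The data come from wild-type KBM7, a human chronic myeloid leukaemia cell line known for its nearly haploid genome. Chromatin immunoprecipitation with sequencing (ChIP-seq) gave 1 library for H3K27ac, which marks active promoters and enhancers, and 1 for H3K4me3, which marks mainly promoters, with 1 library of input chromatin. The 3 libraries are labelled with no other genotype, drug or time, and they belong to a study of how genes that define a cell type depend on the Mediator complex. No value here has a replicate error.

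Retinoic acid is made from vitamin A inside cells. A RAR binds it as a dimer with an RXR, on DNA elements built from repeated hexamers. Without ligand the dimer recruits co-repressors that remove histone acetylation, and with ligand it recruits co-activators that add it. In blood formation this pathway is best known from granulocyte maturation and from acute promyelocytic leukaemia, in which RARA is fused to another gene and the cells mature under retinoic acid. Each RAR gene is known to have more than 1 promoter, which give proteins that differ at their amino end. RXR proteins are also the partners of the vitamin D, thyroid hormone, fatty acid and oxysterol receptors.

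Promoter sequences of 4 of the genes are shown because they carry the main contrast between marked and unmarked starts. They are from RefSeq (GRCh38.p14, the build of the deposited files, hg38), run from 250 bases before to 50 bases after a listed start, and are written 5′ to 3′ on the strand of the gene. Capitals mark the forms of the receptor recognition hexamer that were searched on either strand, namely AGGTCA with its variant GGGTCA besides AGTTCA with its variant GGTTCA. The RARB promoter with H3K4me3 and no H3K27ac (chr3:25428013-25428312, plus strand), the RARB promoter that opens the gene record and had neither mark (chr3:24829071-24829370, plus), the RARA promoter with the strongest marks (chr17:40317995-40318294, plus), the RXRA promoter at the start of its record with both marks (chr9:134326205-134326504, plus) and the RXRG promoter with neither (chr1:165445077-165445376, minus) follow.
RARB, H3K4me3 only: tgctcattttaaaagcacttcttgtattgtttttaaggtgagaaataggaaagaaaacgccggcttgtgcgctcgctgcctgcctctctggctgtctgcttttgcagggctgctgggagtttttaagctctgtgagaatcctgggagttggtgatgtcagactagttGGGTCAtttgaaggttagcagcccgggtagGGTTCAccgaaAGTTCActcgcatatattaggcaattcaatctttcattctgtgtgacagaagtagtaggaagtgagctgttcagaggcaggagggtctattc
RARB, start of the record, neither mark: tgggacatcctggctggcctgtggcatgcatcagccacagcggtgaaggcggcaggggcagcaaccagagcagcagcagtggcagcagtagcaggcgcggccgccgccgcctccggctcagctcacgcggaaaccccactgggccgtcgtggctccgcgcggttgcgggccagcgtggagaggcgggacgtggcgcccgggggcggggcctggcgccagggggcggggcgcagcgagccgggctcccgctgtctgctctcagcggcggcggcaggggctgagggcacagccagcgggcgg
RARA, both marks: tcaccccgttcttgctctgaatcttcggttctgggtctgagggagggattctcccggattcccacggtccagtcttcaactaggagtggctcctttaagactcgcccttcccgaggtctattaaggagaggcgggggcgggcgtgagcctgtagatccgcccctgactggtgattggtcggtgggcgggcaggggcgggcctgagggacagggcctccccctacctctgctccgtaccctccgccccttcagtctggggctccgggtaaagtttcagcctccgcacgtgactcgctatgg
RXRA, both marks: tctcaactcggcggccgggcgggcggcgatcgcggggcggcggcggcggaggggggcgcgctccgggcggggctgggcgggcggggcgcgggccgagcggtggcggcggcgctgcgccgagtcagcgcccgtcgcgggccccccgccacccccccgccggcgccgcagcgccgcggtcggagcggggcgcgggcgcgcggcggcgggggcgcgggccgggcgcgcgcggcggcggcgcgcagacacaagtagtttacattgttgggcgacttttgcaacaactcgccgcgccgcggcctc
RXRG, neither mark: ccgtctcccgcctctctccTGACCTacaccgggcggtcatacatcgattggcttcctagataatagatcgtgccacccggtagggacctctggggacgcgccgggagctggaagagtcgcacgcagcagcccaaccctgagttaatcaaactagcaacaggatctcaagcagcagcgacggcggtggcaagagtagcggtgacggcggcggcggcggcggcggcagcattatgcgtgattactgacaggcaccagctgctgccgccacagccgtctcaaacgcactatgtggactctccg

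Of the 6 genes, 4 had both marks within 1 kb of a listed start (RARA, RARG, RXRA and RXRB), RARB had H3K4me3 without H3K27ac, and RXRG had neither. Over all protein-coding genes 61.0% had both, 6.62% had H3K4me3 without H3K27ac, 2.10% had H3K27ac without H3K4me3 and 30.2% had neither, so 4 of 6 is close to the share of genes in general. Counted by mark, H3K27ac was at a start of 4 of the 6 genes (63.1% of all genes) and H3K4me3 at a start of 5 (67.6% of all genes). Over the 6 windows the H3K27ac list held 60 peaks, of which 11 were at listed starts, 39 inside the genes, 1 at a 3′ end and 9 in the flanks. The H3K4me3 list held 26 peaks, with 5 at listed starts, 17 inside, 1 at a 3′ end and 3 in the flanks. Of the H3K4me3 peaks 24 of 26 overlapped H3K27ac (83.8% in the whole list), and of the H3K27ac peaks 22 of 60 overlapped H3K4me3 (36.0% in the whole list). Fold enrichment is the authors' value at the summit of a peak over an expected background. The 95% intervals given for single folds are exact Poisson intervals on the fragments at the summit and cover counting error only.

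**Figure D1:**
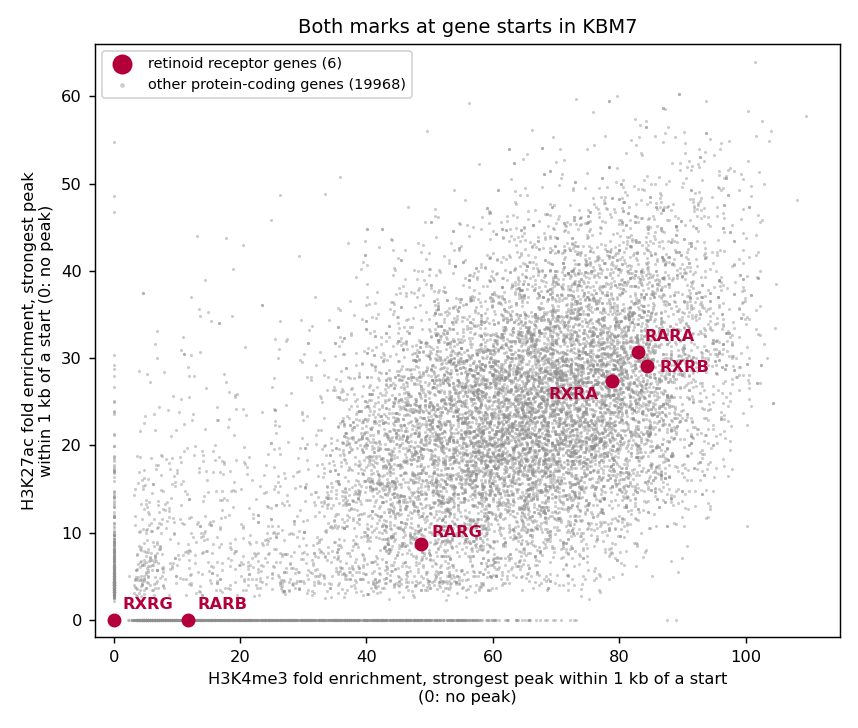
H3K27ac fold enrichment (vertical axis) against H3K4me3 fold enrichment (horizontal axis) of the strongest peak within 1 kb of a start, with 0 for no peak; red points are the 6 retinoid receptor genes and grey points all other protein-coding genes. RARA, RXRA and RXRB lie together at H3K27ac folds of 27.4 to 30.7 and H3K4me3 folds of 78.8 to 84.4, RARG lies lower on both axes, RARB has H3K4me3 alone and RXRG is at the origin.

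RARA, the receptor gene that is rearranged in acute promyelocytic leukaemia, was the most extensively acetylated of the 6. Its record spans 48.5 kb (chromosome 17, 40309180 to 40357643, plus strand), and H3K27ac peaks covered 80.2% of it. The median was 3.55% over the 3913 protein-coding genes whose lengths are within 1.5 times that of RARA, and 99.9% of those genes had a lower share. H3K4me3 covered 24.1% of the record, against a median of 3.89% for the same genes. The window held 21 H3K27ac peaks with folds from 2.89 to 30.7 and 10 H3K4me3 peaks with folds from 3.71 to 82.9.

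RefSeq lists 3 starts for RARA, and H3K4me3 was found within 1 kb of 1 of them, the middle one. At the middle start (40318245, 9.07 kb into the record) H3K4me3 had a fold of 82.9 (interval 73.4 to 93.3, 274 fragments) over 7363 bp, with its summit 193 bp downstream of the start. H3K27ac had a fold of 30.7 (26.3 to 35.7, 169 fragments) over a single interval of 9760 bp that contained the whole H3K4me3 interval. This H3K27ac interval was wider than 99.2% of the strongest start peaks of marked genes, while its fold was higher than 76.2% of them. The H3K4me3 interval was likewise wider than 99.2%, with a fold higher than 87.9%. The summits of the marks were 3820 bp apart, with H3K27ac 4013 bp downstream of the start. A listed start of the long non-coding RNA LOC105371934 lies at both intervals, so these peaks cannot be assigned to RARA alone.

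At the start that opens the RARA record (40309180) no H3K4me3 peak came within 1 kb, and the closest, of fold 3.71, was 3047 bp away. H3K27ac there was weaker than at the middle start, with 3 peaks of folds up to 9.28 (6.63 to 12.6). At the last start (40342166) the closest H3K4me3 peak was 2473 bp away, while 3 H3K27ac peaks of folds 2.89 to 15.8 lay within 1 kb. Those of folds 2.89 and 15.8 lay within 1 kb of a start of the antisense gene RARA-AS1. That of fold 3.72 overlapped the RARA-AS1 record, so none of the 3 can be assigned to RARA alone. The H3K4me3 peak had a fold of 30.7 (25.1 to 37.0, 106 fragments) and a width of 1439 bp. It lay 3342 bp downstream of the last listed start, inside the gene and at no listed start of any gene. A further internal H3K4me3 peak of fold 11.9, 21.1 kb into the record, met an H3K27ac interval of fold 17.9. The remaining internal H3K4me3 peaks had folds of 3.71 to 5.82. The strong H3K4me3 peak of fold 65.6 in the 3′ flank lies at a start of GJD3-AS1 and overlaps GJD3, a connexin gene, and cannot be assigned to RARA.

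The super-enhancer assigned to RARA by the authors is the only one in the deposited table that named or overlapped any of the 6 genes. Of all protein-coding genes 2.25% were targets and 2.92% were overlapped by a super-enhancer. The region spans 51.8 kb (chromosome 17, 40303310 to 40355154), begins 5870 bp before the RARA record and covers 94.9% of it. It held 20 of the 21 H3K27ac peaks and 8 of the 10 H3K4me3 peaks of the RARA window. By the difference of H3K27ac and input signal it held rank 118 from the strongest, by length rank 177 and by the ratio of H3K27ac to input rank 163. That ratio was 9.74, against a median of 8.11 over all super-enhancers, and the median length was 41.6 kb. H3K27ac peaks covered 80.7% of the region, more than in 84.8% of the super-enhancers, and H3K4me3 peaks 22.5%, more than in 74.6% of them. The name of that table says that targets were chosen by expression, so the assignment is not independent evidence that RARA was transcribed. The nearest super-enhancer was 1056 kb from RARG, 1575 kb from RXRB, 1637 kb from RXRG, 3059 kb from RXRA and 6563 kb from RARB.

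**Figure D2:**
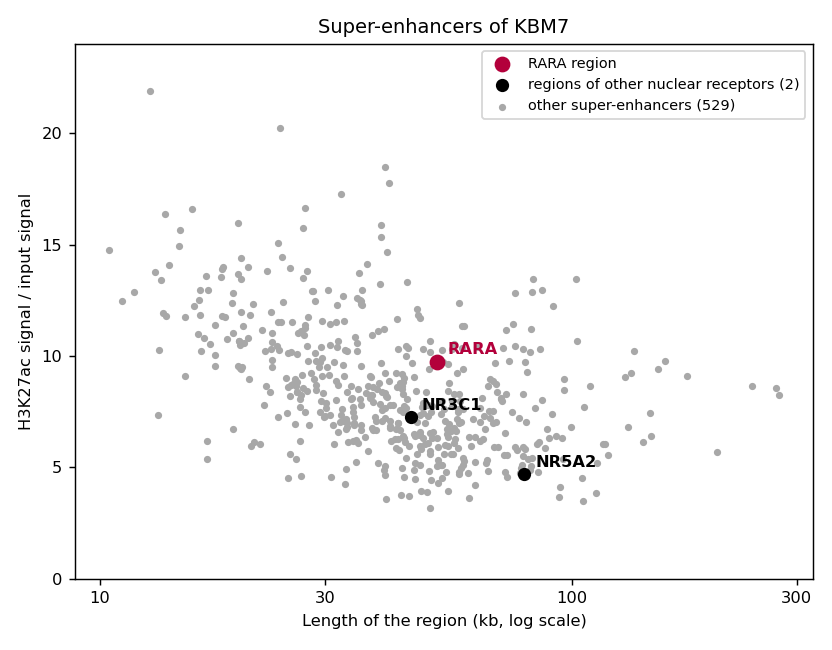
Ratio of H3K27ac to input signal (vertical axis) against the length of each deposited super-enhancer (horizontal axis, kb, log scale), 1 point a region; the red point is the region assigned to RARA, black points are those of the other nuclear receptors NR3C1 and NR5A2, and grey points are the rest. The RARA region (51.8 kb, ratio 9.74) lies above both, with NR3C1 at 45.6 kb and 7.26 and NR5A2 at 79.3 kb and 4.69.

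RARG, a receptor known from skin and from haematopoietic stem cells in mice, was marked more strongly inside the gene than at its listed start. The record spans 21.6 kb (chromosome 12, 53210569 to 53232209, minus strand) and has 1 listed start, at 53232209. At this start H3K27ac had a fold of 8.72 (6.08 to 12.1, 33 fragments) over 776 bp and H3K4me3 a fold of 48.7 (41.1 to 57.2, 144 fragments) over 1443 bp. The H3K27ac fold was higher than in 11.0% of genes with that mark at a start, and the H3K4me3 fold higher than in 26.3%.

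The stronger signal of RARG lay 12066 bp downstream of the listed start, at the H3K4me3 summit of an interval at no listed start of any gene. There H3K4me3 reached a fold of 67.0 (58.4 to 76.4, 218 fragments) over 3949 bp, and H3K27ac a fold of 24.2 (20.1 to 28.8, 121 fragments) over 5755 bp. The intervals of both folds lie above those at the listed start, as measured by counting error. Among 11015 genes with a listed start and H3K4me3 there, 4.58% had their strongest H3K4me3 peak away from every listed start, as RARG did. A further marked site lay at the 3′ end, with H3K27ac at a fold of 25.6 (21.1 to 30.8) and H3K4me3 at 20.9 (16.3 to 26.4). Its H3K4me3 summit was 1200 bp past the end of RARG and 2118 bp before the start of ITGB7, an integrin gene of white blood cells. H3K27ac covered 48.5% of the RARG record, more than in 97.7% of 4192 genes of similar length (median 5.87%), and the gene was not assigned a super-enhancer.

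RARB, which is itself switched on by retinoic acid in many cell types, carried H3K4me3 at 1 of 4 listed starts and no H3K27ac anywhere in its window. The record spans 769 kb (chromosome 3, 24829321 to 25597932, plus strand). The only peak of either mark was an H3K4me3 interval of 788 bp at the start at 25428263, 598.9 kb into the record, with a fold of 11.8 (8.39 to 16.1, 37 fragments) and its summit 197 bp upstream of the start. Among the 1323 genes with H3K4me3 and no H3K27ac at a start the median fold was 22.7, and 29.9% had a lower fold than RARB. The start that opens the record, a GC-rich sequence printed above, had neither mark within 1 kb. The closest H3K4me3 peak to it was 307037 bp away and the closest H3K27ac peak 307550 bp away. The starts at 25340802 and 25458310 also had neither mark.

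The absence of H3K27ac from RARB means that no peak passed the authors' q cut-off, and the fewest fragments at the summit of any H3K27ac peak in the list were 9. The closest H3K27ac peak on the 3′ side began 5.54 kb beyond the end of the record, inside TOP2B, with a fold of 4.34 and 23 fragments. On the 5′ side the closest was 307.6 kb away. Among 314 genes of at least 500 kb, 35.7% had no H3K27ac peak over the record with 5 kb either side, against 27.3% of all genes. Neither RARA nor RARB had H3K4me3 within 1 kb of either end of its record although a listed start inside had it, which held for 3.64% of genes with a listed start. Judged by the ends of the records alone, RARA would count as having H3K27ac only and RARB as having neither mark.

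The marked RARB promoter holds 3 of the searched hexamers, and 2 of them form a direct repeat. Its sequence is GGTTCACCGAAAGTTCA, in which the outer 6 letters on each side are the hexamers and the 5 letters between them the spacer (chr3:25428210-25428226, plus strand). It lies 53 to 37 bases upstream of the start and inside the H3K4me3 interval, 144 bp from its summit. A repeat of this kind, with any of the 4 hexamers on each side in the same orientation and a spacer of 5 letters, was found on either strand in 31 of 35114 RefSeq promoters of 300 letters (0.0883%). Any of the hexamers alone was found in 38.6% of the promoters. None of the other 12 promoters of the 6 genes held such a repeat. Among 157 promoters of 78 other nuclear receptor and pathway genes 1 did, that of CYP26A1, the enzyme that breaks down retinoic acid. The CYP26A1 promoter had both marks, and the strongest start peaks of the gene had an H3K27ac fold of 12.3 and an H3K4me3 fold of 44.2. A match of letters does not show that a receptor was bound.

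The CpG content of the member promoters overlapped between those with and without marks. The marked RARB promoter had 7 CpG dinucleotides, and the unmarked RARB promoter at the start of the record had 33. The other promoters with neither mark had 28 (RXRG), 8 (RXRA, start at 134379295), 2 (RARB, start at 25458310) and 1 (RARB, start at 25340802). The strongly marked RARA promoter had 19, the RARG promoter 14, the RXRB promoters 17 and 26, and the RXRA promoter at the start of the record 65. Promoters with both marks had a median of 26 CpG and those with neither a median of 4. Of the 5 member promoters with neither mark, those of RARB at the start of the record and of RXRG thus lay above the median of promoters with both marks, and the other 3 lay far below it.

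**Figure D3:**
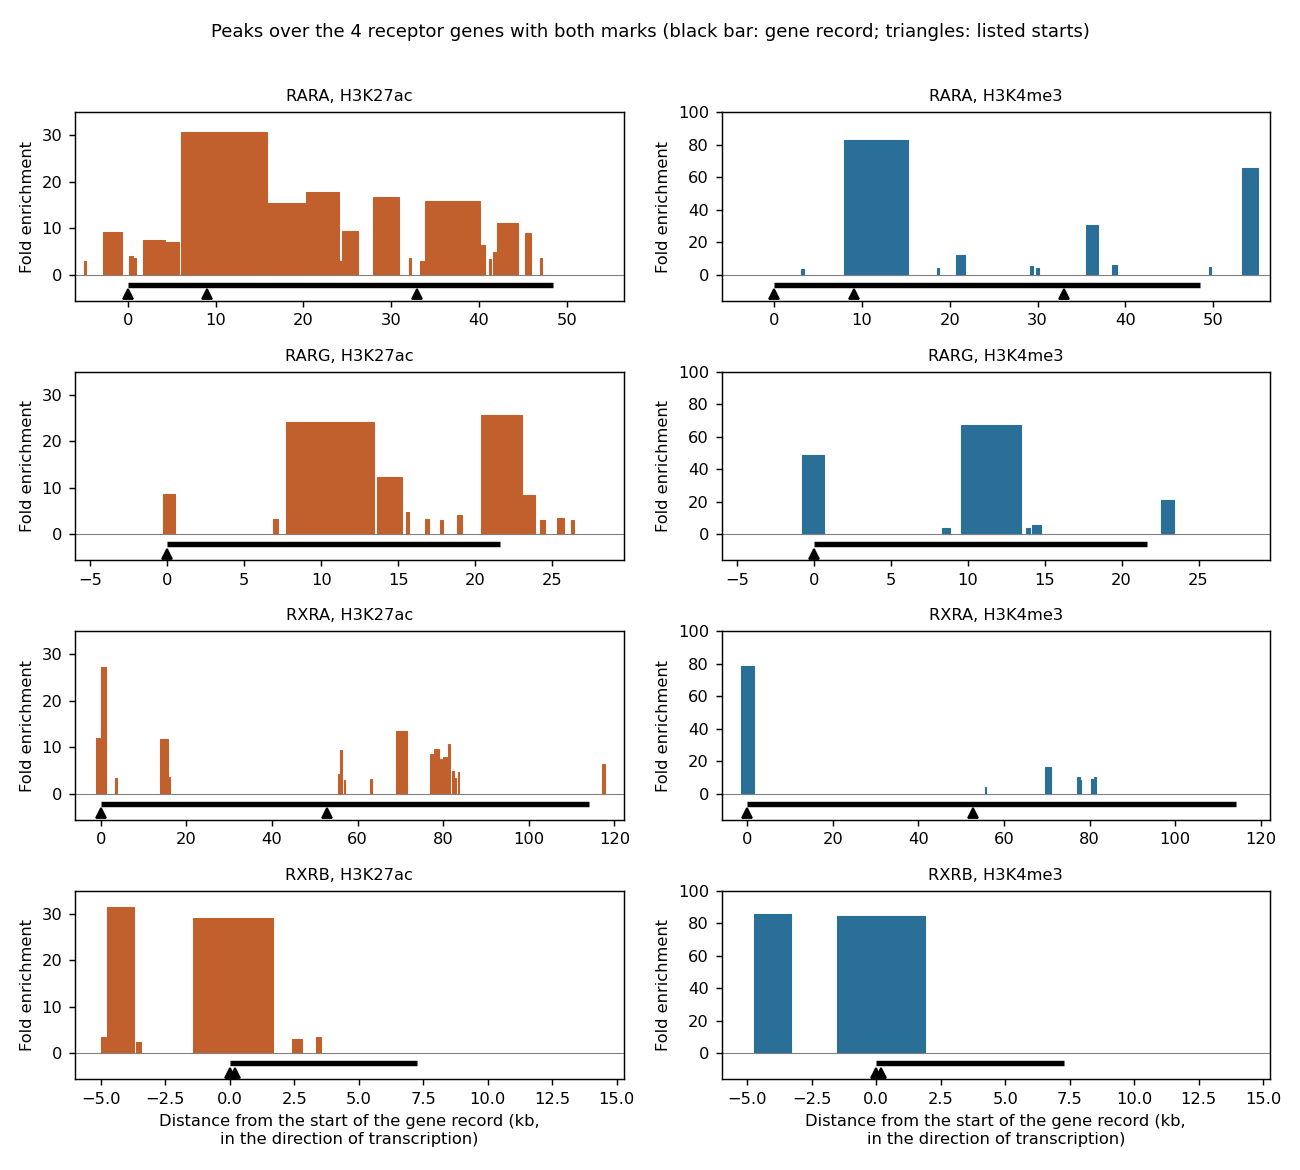
Peaks over RARA, RARG, RXRA and RXRB, with H3K27ac in the left column and H3K4me3 in the right; each block spans a peak along the distance from the start of the gene record (horizontal axis, kb, in the direction of transcription), and its height is the fold enrichment at its summit (vertical axis). Black bars are the gene records and triangles the listed starts. RARA is acetylated over most of its length with H3K4me3 at the middle start. RARG has its tallest H3K4me3 block inside the gene. For each mark RXRA has its tallest block at the first listed start and lower ones inside the gene. RXRB has its tallest blocks at the start and in the upstream flank, with 2 low H3K27ac blocks inside the gene.

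RXRA, the RXR gene known for roles in myeloid cells and liver, had strong marks at its first start and a group of weaker peaks far inside the gene. The record spans 114 kb (chromosome 9, 134326455 to 134440585, plus strand). At the start that opens it H3K4me3 had a fold of 78.8 (69.8 to 88.6, 274 fragments) over an unbroken interval of 2970 bp. H3K27ac fell into separate peaks on either side, with a fold of 12.1 (9.17 to 15.7) upstream and 27.4 (22.4 to 33.1) downstream. The gap of 165 bp between them, from 134326350 to 134326514, contains the start. At the other listed start (134379295, 52.8 kb into the record) neither mark had a peak within 1 kb.

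Inside RXRA, 17 H3K27ac peaks and 6 H3K4me3 peaks lay away from the listed starts. The group with the most peaks was 8 H3K27ac peaks and 4 H3K4me3 peaks over 6.82 kb (134403273 to 134410092), with folds up to 10.7 for H3K27ac and up to 10.6 for H3K4me3. A further site, with an H3K4me3 interval from 134396006 to 134397338, had an H3K4me3 fold of 16.5 (12.4 to 21.7) and an H3K27ac fold of 13.6 (10.3 to 17.5), with the summits 49 bp apart. The H3K27ac peak of fold 11.9 at 14.7 kb into the record had no H3K4me3. H3K27ac covered 11.3% of the record, more than in 89.5% of 2656 genes of similar length (median 2.22%). RXRA and RARA thus had similar numbers of H3K27ac peaks, 20 and 21, but in RXRA they covered a smaller part of a longer gene. RXRA was not assigned a super-enhancer.

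RXRB, a broadly expressed RXR gene in the major histocompatibility region, shares its promoter interval with a neighbour. The record spans 7.27 kb (chromosome 6, 33193588 to 33200853, minus strand), and its outer start lies 14 bp from the start of SLC39A7, a zinc transporter gene read in the opposite direction. A single H3K4me3 interval of 3431 bp with a fold of 84.4 (74.6 to 95.0, 269 fragments) covered both listed RXRB starts and that of SLC39A7. H3K27ac had a fold of 29.0 (25.0 to 33.5, 186 fragments) over 3099 bp. The values cannot be divided between the genes. The other strong peaks of the window, an H3K27ac peak of fold 31.4 and an H3K4me3 peak of fold 85.6, were the highest of the 60 and the 26 peaks but lie at the start of HSD17B8, 3.8 kb upstream of RXRB. Inside RXRB itself there were 2 further H3K27ac peaks, of folds 3.11 and 3.43, and no H3K4me3.

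RXRG, an RXR gene known from muscle and nervous system, had no peak of either mark. The record spans 44.2 kb (chromosome 1, 165400922 to 165445126, minus strand). From its start the nearest H3K4me3 peak was 68157 bp away and the nearest H3K27ac peak 152877 bp away. Among 4017 genes within 1.5 times its length 12.8% had no peak of either mark over the record with 5 kb either side, and over all genes 21.1% had none.

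Ordered by H3K27ac fold at a start, the genes were RARA (30.7), RXRB (29.0), RXRA (27.4), RARG (8.72), and RARB and RXRG without a peak. The counting intervals of RARA, RXRB and RXRA overlap, and that of RARG lies below all 3. By H3K4me3 the order was RXRB (84.4), RARA (82.9), RXRA (78.8), RARG (48.7) and RARB (11.8). Again the intervals of the leading 3 overlap, RARG lies below them and RARB below RARG. With 1 library a mark, the spread between libraries is not known and these orders hold for these libraries.

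Among the 48 human nuclear receptor genes, RARA had the widest H3K27ac peak at a start and the largest share of its record covered by H3K27ac. RARA was the 4th by H3K27ac fold and the 6th by H3K4me3 fold. RXRB stood 7th by H3K27ac and 5th by H3K4me3, RXRA 11th and 8th in the same order, and RARG 24th and 23rd. Of the other 42 receptor genes 25 had both marks at a start, 2 had H3K27ac only, 3 had H3K4me3 only and 12 had neither. The 25 make 59.5%, near the 61.0% of all protein-coding genes. Super-enhancers were assigned to NR3C1, the glucocorticoid receptor, and NR5A2, a receptor of liver and stem cells, besides RARA.

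The receptors most like each member were taken as those with the smallest Euclidean distance over log2 fold and log2 width of both start peaks, among the 25 receptors with both marks and over these 2 libraries. Receptors close to RARA included NR2F1 (distance 1.34) and NR3C1 (1.38). Closest to RXRB were NR6A1 (0.22), NR4A2 (0.55) and THRA (0.75). For RXRA they were NR2C1 (0.78), ESR2 (0.83) and ESRRA (0.87), and for RARG NR5A2 (0.94), NR3C2 (1.13) and PPARD (1.27). RARB has no H3K27ac width or fold, and the receptors that also had H3K4me3 alone were PGR (fold 23.9), THRB (25.8) and NR2F2 (45.5), all above the 11.8 of RARB.

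**Figure D4:**
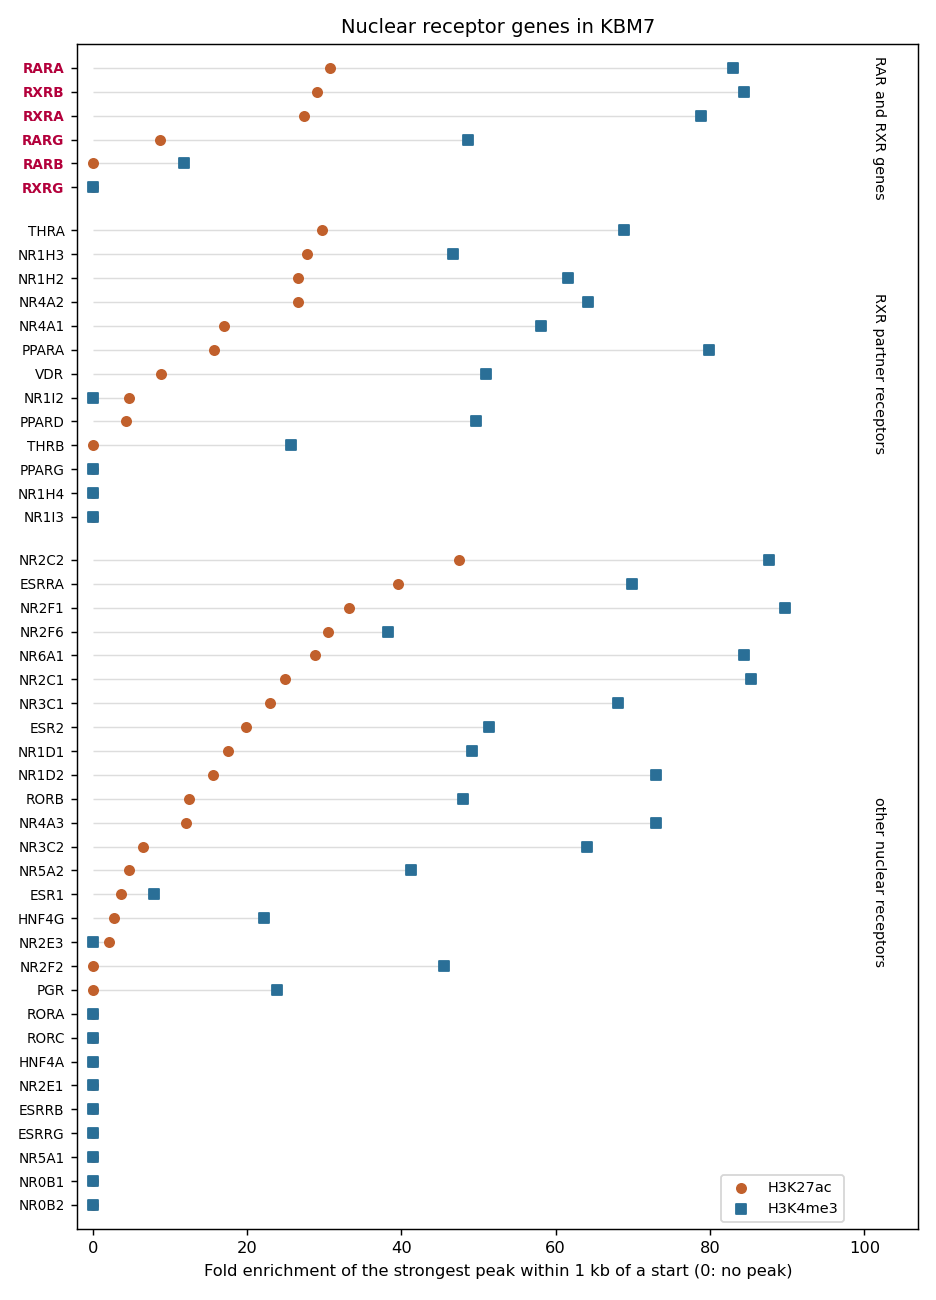
Fold enrichment of the strongest H3K27ac (circles) and H3K4me3 (squares) peak within 1 kb of a start (horizontal axis, 0 for no peak) for nuclear receptor genes (vertical axis, all but 1 of the 48), in 3 blocks each sorted by H3K27ac; a circle at 0 may lie under a square. RARA, RXRB and RXRA sit among the higher receptors for both marks, and RARB and RXRG among those with no H3K27ac.

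Of the 13 receptors that pair with an RXR, 8 had both marks at a start (61.5%), close to the 61.0% of all protein-coding genes. The highest H3K27ac fold was at THRA, a thyroid hormone receptor (29.7, with H3K4me3 at 68.8), and the lowest at PPARD, a fatty acid receptor (4.27, with H3K4me3 at 49.7). NR1H3 and NR1H2, the oxysterol receptors LXR alpha and beta, had H3K27ac folds of 27.7 and 26.7, and VDR, the vitamin D receptor, 8.81. Without both marks were NR1H4, the bile acid receptor, NR1I2 and NR1I3, xenobiotic receptors of liver, PPARG, the receptor of fat cells, and THRB. NR1I2 had H3K27ac alone (4.66) and THRB H3K4me3 alone, and the others had neither at a start. In the wider family the highest H3K27ac fold was at NR2C2 (47.4) and the lowest at NR2E3, a receptor of the retina (2.18). ESRRB, ESRRG, HNF4A and NR0B1 were among the receptors with neither mark at a start.

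Genes that supply and bind the ligand were marked in part. For comparison, 61.0% of all protein-coding genes had both marks at a start. Of 7 genes for retinoid uptake, storage and binding 2 had both marks, FABP5 (H3K27ac fold 14.8) and CRABP2 (4.74), which carry retinoic acid within the cell. CRABP1 had H3K4me3 alone, with a fold of 7.60, and STRA6, RBP4 and LRAT had neither. Of the 9 genes listed for retinoic acid synthesis, which include reductases as well as dehydrogenases, 4 had both marks. They were RDH10 (28.8), RDH11 (12.8), DHRS3 (9.17) and DHRS9 (4.48), dehydrogenases and reductases of the retinol and retinal step. Of the retinal dehydrogenases that make retinoic acid, ALDH1A3 had H3K4me3 alone at its start (46.2), and ALDH1A1 and ALDH1A2 had no peak in their windows, nor had the alcohol dehydrogenase genes ADH4 and ADH7. Among the 3 breakdown enzymes CYP26A1 had both marks, CYP26B1 had H3K4me3 alone (30.1) and CYP26C1 had neither at its start. No test was made of these counts, since the lists were chosen with results known.

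All 8 co-repressor genes had both marks at a start, against 61.0% of all protein-coding genes. The highest H3K27ac fold was at TBL1XR1, a core subunit of the co-repressor complex (51.6), and the lowest at GPS2, another subunit (18.6), with NCOR1 at 45.5. TBL1X and TBL1XR1 were among the super-enhancer targets, which made up 2.25% of all protein-coding genes. Of the 10 co-activator genes 9 had both marks, from MED1, a Mediator subunit that contacts nuclear receptors (17.5), to EP300, a histone acetyltransferase (45.2). The exception was NCOA2, for which no start was listed, so that the ends of its record were used. Its window held 11 H3K27ac peaks away from those ends.

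Of 12 genes known to respond to retinoic acid, including 4 from the lists above, 7 had both marks at a start, close to the 61.0% of all genes. The lowest H3K27ac fold among them was at CRABP2. CEBPE, a factor of granulocyte maturation, had H3K27ac at 18.5 and H3K4me3 at 5.94, and ITGAM, a surface integrin of maturing myeloid cells, had 15.6 and 9.22. Both genes lay below the medians of marked protein-coding genes, which were 22.9 for H3K27ac and 62.9 for H3K4me3. CD38, a surface enzyme induced by retinoic acid, had H3K4me3 alone (13.8). HOXB1 and STRA8 had neither mark at a start, nor did TGM2, a transglutaminase, at the ends of its record. All 9 genes known as fusion partners of RARA had both marks, from ZBTB16 (4.11) to TBL1XR1 (51.6), with PML at 30.8 and NPM1 at 39.3. PML, BCOR and TBL1XR1 were super-enhancer targets, as were 2.25% of all protein-coding genes. The ratios of H3K27ac to input of their regions were 3.61, 15.3 and 8.98, against a median of 8.11 over all super-enhancers. By the difference of H3K27ac and input signal the same regions held ranks 241, 67 and 460. The ratio also varies with the input signal of a region, and the copy number of these regions was not tested.

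**Figure D5:**
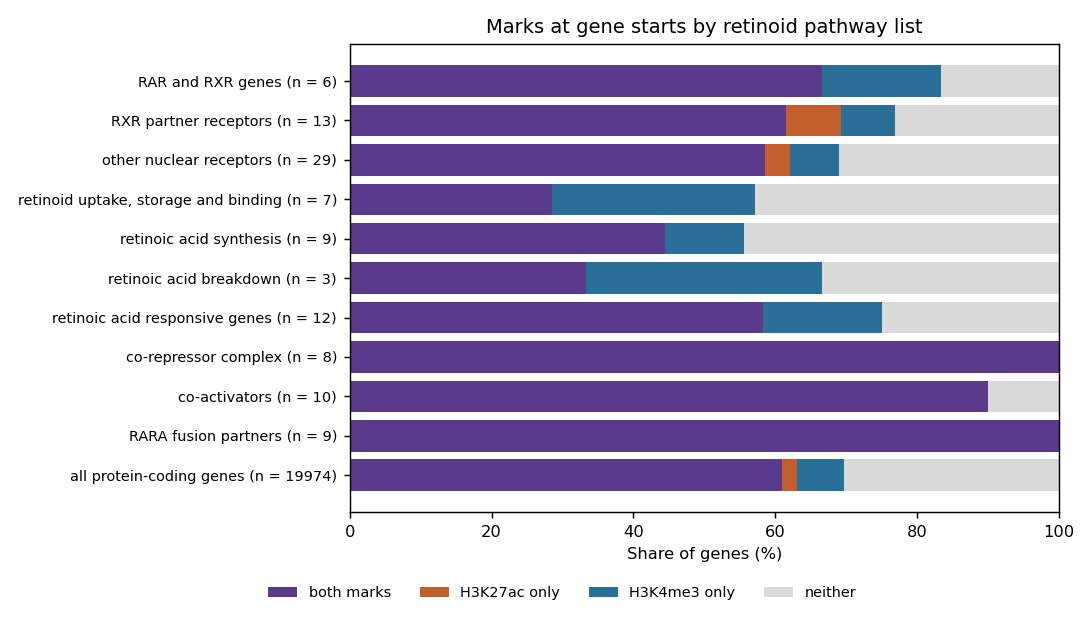
Share of genes in each list (horizontal axis, %) with both marks, H3K27ac only, H3K4me3 only or neither mark within 1 kb of a start, 1 bar a list with the number of genes beside its name. Both marks fill the bars of the co-repressors and fusion partners, and the 6 receptor genes lie near all protein-coding genes.

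The cell line label was set against marker genes. Of 10 myeloid genes 9 had both marks at a start, against 61.0% of all protein-coding genes. Among the 9 were SPI1, MYB, GATA2 and CD33, and CSF3R had H3K27ac alone. Of 14 genes of other cells 5 had both, among them CD3E, CD3D, SYP and COL1A1, and 9 had no peak in their windows, such as HBB, ALB and MYOD1. The H3K27ac list held 96659 peaks and the H3K4me3 list 36951, and the median peak had 21 fragments at its summit for H3K27ac and 39 for H3K4me3. The expected background at the peaks of the 6 genes was 2.80 to 6.35 fragments for H3K27ac (median of the whole list 3.63) and 1.92 to 3.11 for H3K4me3 (median 2.66).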

How the data were processed

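Per the labels, chromatin of wild-type KBM7 cells was sonicated and immunoprecipitated for H3K27ac or H3K4me3, with 1 library each and 1 input. Bowtie2 2.3.4 and bedtools 2.20.1 on hg38 are named in the submitters' processing notes. The sources used here name no peak caller and no read totals. Each deposited peak has a fold ratio at the summit over background, a −log10 p-value, a −log10 q-value and a score, which is 10 times the −log10 q rounded down. The lowest −log10 q was 1.32 for H3K27ac and 1.33 for H3K4me3. The deposited super-enhancer table gives H3K27ac and input signal per region, the only deposited values labelled as input; whether the input also served as the control for peaks is not stated.

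From fold and p, with Python 3.11.15, pandas 2.3.3 and scipy 1.17.1, the fragments at each summit and their expected background were recovered (−log10 p within 0.01 in 100% of peaks; checked on simulated data). Folds have 95% exact Poisson intervals on these fragments. A gene was counted as marked where a peak came within 1 kb of any start in RefSeq's promoter table (15812 of 19974 genes); for the other 4162, both ends of the record stood in. Overlap meant at least 1 bp. With 1 library a mark, no p-value between groups could be computed. The members and gene lists were chosen with earlier results of these data known. Named in each list were the highest and lowest H3K27ac fold and up to 4 genes without both marks in alphabetical order (or with both, where fewer); other names were added after their values were seen. Some list genes are not reported here by name.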

Additional observations from a re-analysis of the deposited data

How the results depend on the processing

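Of 27 alternative settings tried over the 6 results, 24 left the count within 1.5 times its reported value. The number of H3K27ac peaks over the 6 genes, 60 as reported, was 34 with the stronger 50% of the list by fold and 37 with a −log10 q of at least 5. The number of H3K4me3 peaks, 26 as reported, was 13 with the stronger 50% by fold. Both settings keep fewer peaks by construction. The 4 genes with both marks at a start kept that state with windows of 500 bp and 2 kb and with both stricter lists. Judged by either end of the record, 3 genes had both marks, since RARA then had H3K27ac only, and RARB had neither mark. Among the other 42 receptor genes the count of 25 ranged from 22 to 25, and among the 53 pathway genes the count of 36 ranged from 32 to 36. The super-enhancer count was 1 under each definition. No paired analysis was possible because each mark has 1 library and no result comes from a test. A gene without a peak is one with no signal past the deposited cut-off at this depth, not one shown to lack the mark.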
